A study of Mus musculus with 60 samples.

Results

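The 9 genes for proneural basic helix-loop-helix (bHLH) transcription factors, Neurog1, Neurog2, Neurog3, Neurod1, Neurod2, Neurod4, Neurod6, Atoh1 and Olig2, were examined for trimethylation of histone H3 lysine 27 (H3K27me3). They were taken by name, 9 of 21728 protein-coding genes of chromosomes 1 to 19 and X. For each gene the window was the gene body with 20 kb on each side (mm10), and the start site was the annotated 5′ end with 1 kb on each side. The cells were C3H 10T1/2, a line of mouse mesenchymal progenitor cells (MPC) that does not belong to the neural lineage. Every group carried a lentiviral H3.1 transgene with HA and FLAG tags, driven by the EF1 promoter in a puromycin-selected pool, and all cells kept their own H3. The transgene was wild type (H3WT, the control) or had an arginine of the N-terminal tail replaced by cysteine (H3R2C, H3R8C, H3R17C or H3R26C). H3K27me3 and the HA tag were profiled by CUT&RUN, in which a nuclease tethered to an antibody cuts out the bound DNA for sequencing.

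The deposited lists of peaks were labelled as 3 replicates per group, but 2 of the 3 had identical values and were counted once. Whether these stand for 1 library deposited again or for pooled replicates is not given in the sources used here, so the number of cultures behind library 1 is unknown. This left 2 libraries each for H3WT, H3R2C, H3R8C and H3R26C with anti-H3K27me3, of which library 1 stands for labelled replicates 1 and 2 and library 2 for replicate 3. H3R17C had 1 usable H3K27me3 library, because the name of the list for its replicate 1 gave another mark, so its values carry no test. The 9 H3K27me3 lists held 20077 to 24598 peaks with a median width of 1.90 to 3.75 kb. The lowest total signal of a peak, summed over its bases, ranged from 3400 to 8050 between lists. A gene without a peak was therefore below the level of that list and was not shown to lack the mark. None of 6 housekeeping genes and none of 10 genes that mesenchymal cells use had a start-site peak in both H3WT libraries. Peaks elsewhere in the window let 1 of the housekeeping and 2 of the mesenchymal genes enter the fit described below. Of these 2 mesenchymal genes, 1 was called lower in H3R26C against H3WT, as were 12.9% of all genes of the fit. The lists come from pools of cells, so fewer cells with the mark and less of the mark in each cell cannot be told apart.

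Proneural factors are switched on in progenitors and drive them towards neurons or related fates. They pair with E proteins such as Tcf3 and Tcf12 and bind E-box motifs in DNA, while Id proteins and the Hes and Hey repressors downstream of Notch hold them back. Polycomb Repressive Complex 2 sets H3K27me3, and in cells outside their lineage the genes of such factors are well known to lie in broad H3K27me3 domains over promoters rich in CG dinucleotides. Neurog1 and Neurog2 specify neural progenitors, and Neurog3 specifies the endocrine cells of the pancreas. Neurod1 acts in neuronal and endocrine differentiation, Neurod2 and Neurod6 in cortical neurons, and Neurod4 in retinal and other neurons. Atoh1 specifies hair cells of the inner ear, cerebellar granule neurons and secretory cells of the gut, and Olig2 specifies motor neurons and oligodendrocytes.

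The promoters of these genes differed widely in CG content. Below are the bases upstream of the start site for the CG-rich Neurog1 and Olig2, whose signal fell in H3R2C, for Atoh1, and for the CG-poor Neurod4 and Neurod6, with each CG in capitals and all other bases in lower case, read 5′ to 3′ on the strand of the gene (RefSeq, GRCm38.p6, the build of mm10). The stretches are chr13:56252181-56252430 (minus strand), chr16:91225300-91225456 (plus strand), chr6:64728875-64729124 (plus strand), chr10:130280255-130280504 (minus strand) and chr6:55681264-55681513 (minus strand).
Neurog1: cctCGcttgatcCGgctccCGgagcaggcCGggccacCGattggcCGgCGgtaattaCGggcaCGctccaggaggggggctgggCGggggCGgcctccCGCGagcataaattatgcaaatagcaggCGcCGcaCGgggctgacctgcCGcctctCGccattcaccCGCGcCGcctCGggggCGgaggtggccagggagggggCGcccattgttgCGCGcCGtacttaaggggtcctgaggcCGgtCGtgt
Olig2: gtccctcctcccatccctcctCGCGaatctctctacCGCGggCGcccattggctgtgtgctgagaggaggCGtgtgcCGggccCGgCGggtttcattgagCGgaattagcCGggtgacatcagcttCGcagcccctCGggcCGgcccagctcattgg
Atoh1: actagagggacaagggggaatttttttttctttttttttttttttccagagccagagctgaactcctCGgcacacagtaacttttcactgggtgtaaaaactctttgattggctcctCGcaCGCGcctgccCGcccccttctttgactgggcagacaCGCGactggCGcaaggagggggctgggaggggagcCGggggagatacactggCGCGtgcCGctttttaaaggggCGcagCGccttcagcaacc
Neurod4: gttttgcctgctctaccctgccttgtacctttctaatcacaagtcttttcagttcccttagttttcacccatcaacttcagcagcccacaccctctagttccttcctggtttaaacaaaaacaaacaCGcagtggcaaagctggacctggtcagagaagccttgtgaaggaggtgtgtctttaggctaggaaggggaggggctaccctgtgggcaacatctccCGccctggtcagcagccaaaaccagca
Neurod6: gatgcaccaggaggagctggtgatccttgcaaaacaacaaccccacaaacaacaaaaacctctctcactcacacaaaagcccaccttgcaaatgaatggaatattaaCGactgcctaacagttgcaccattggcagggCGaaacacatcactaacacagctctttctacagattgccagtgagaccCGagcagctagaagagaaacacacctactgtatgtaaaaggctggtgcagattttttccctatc

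Among the RefSeq windows of 250 bases before and 50 bases after a start site, all 9 genes were found (Neurod4 with 2 entries, of which 1 was used). The median over 32851 such promoters was 7 CG dinucleotides. Neurog1 had 32, which 9.52% of promoters reached, followed by Neurod1 with 26, Olig2 with 25, Atoh1 with 20, Neurog3 with 19, Neurod2 with 16 and Neurog2 with 10. Neurod4 with 4 and Neurod6 with 3 lay below the median, and these were 2 of the 3 genes without a start-site peak in H3WT. Atoh1 was the third gene without a peak, although its CG count exceeded that of 3 of the 6 genes with a peak. The E-box CANNTG, whose reverse complement is the same pattern, was counted in the same windows. It occurred 3 times at Neurod2, 2 times at Neurod6 and once each at Neurog1, Neurog3 and Neurod1, and 72.3% of all promoters held at least 1. No CANNTG letters were present in the windows of Neurog2, Neurod4, Atoh1 and Olig2.

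**Figure D1:**
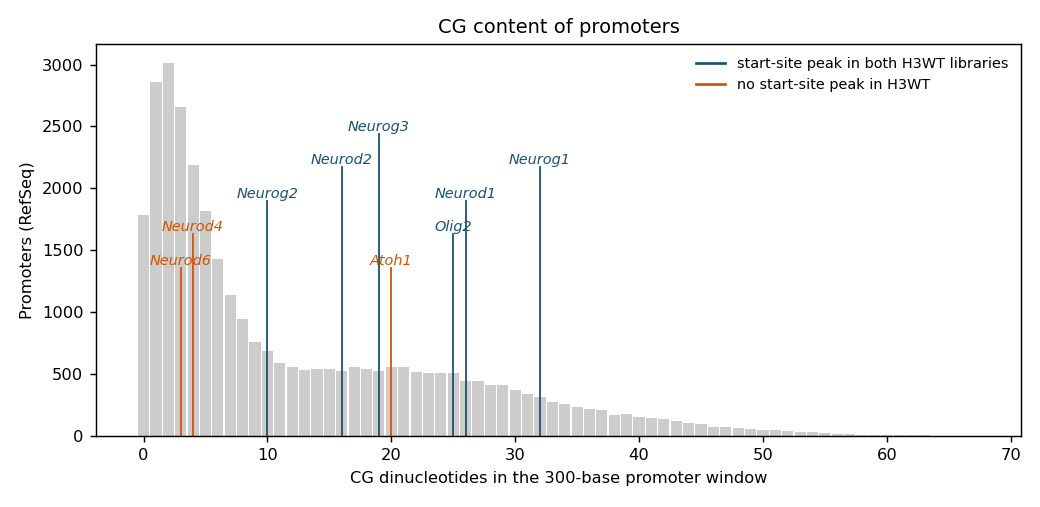
Number of RefSeq promoters (y axis) by the count of CG dinucleotides in the 300-base window (x axis), with the 9 genes marked by vertical lines whose heights carry no meaning. The 6 genes with a start-site peak in both H3WT libraries (blue) had 10 to 32 CG dinucleotides, whereas the genes without one (orange) had 3, 4 and 20.

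In H3WT cells, 6 of the 9 genes carried an H3K27me3 peak over the start site in both libraries, namely Neurog1, Neurog2, Neurog3, Neurod1, Neurod2 and Olig2. Of all protein-coding genes, 8.92% did so. Neurod4, Neurod6 and Atoh1 had no peak anywhere in their windows in H3WT. Neurog1 was covered most widely, over 85.9% of its window in library 1 and 92.4% in library 2. Olig2 was covered over 71.0% and 89.9%, Neurod2 over 59.4% and 61.5%, and Neurog3 over 54.4% and 57.9%. Neurog2 was covered over 48.7% and 46.1% and Neurod1 over 37.9% and 29.96%. In this order only the neighbours Neurog1 and Olig2 overlapped in their values. The median gene had no coverage (0%) in every library.

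Some windows held other genes. The start site of Cerkl lay 0.034 kb upstream of that of Neurod1, so a peak there covers both. The window of Neurog3 held the start site of Fam241b, the window of Neurod2 held that of Ppp1r1b, and the body of Zgrf1 reached into the window of Neurog2.

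**Figure D2:**
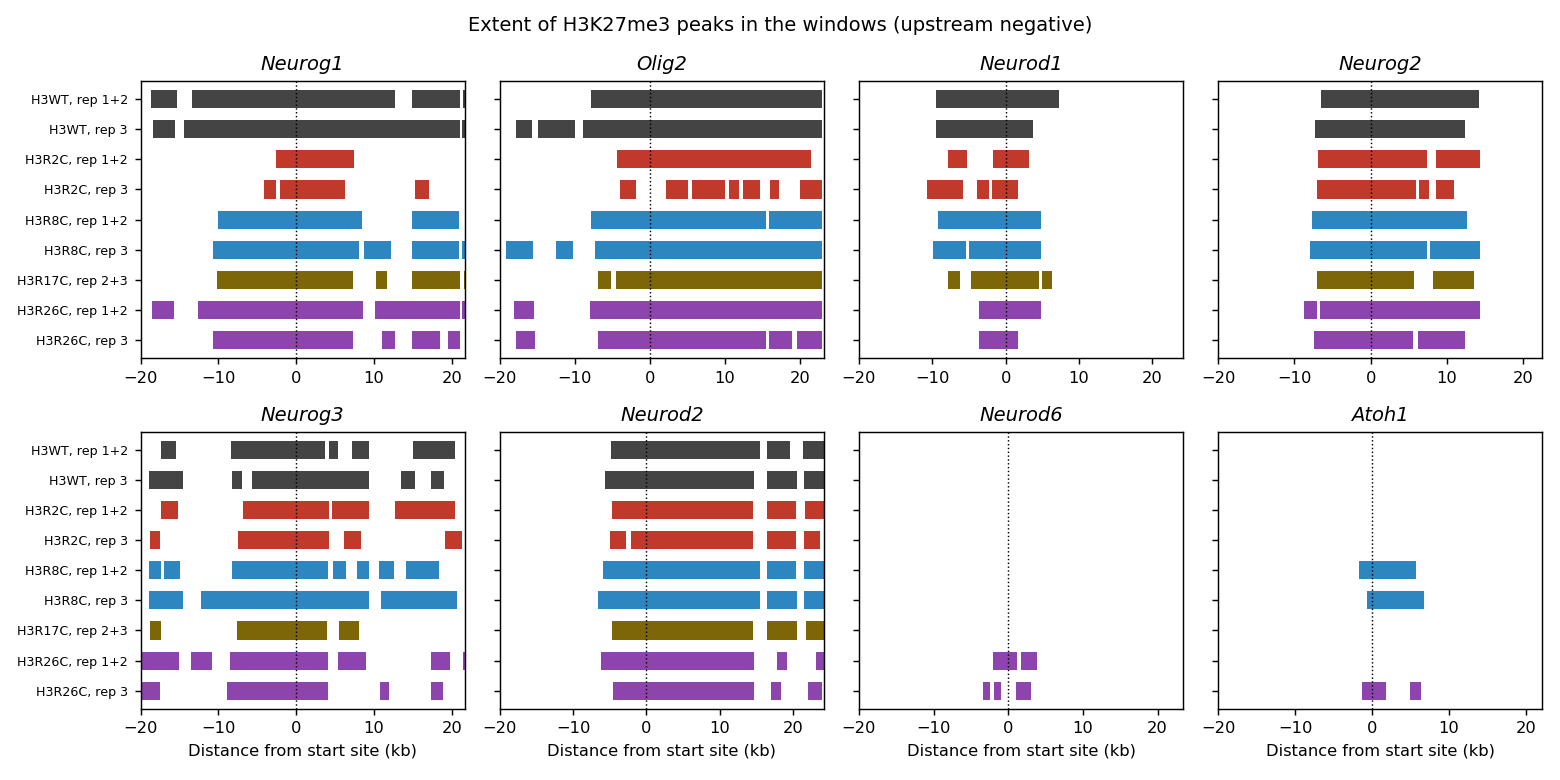
Extent of H3K27me3 peaks (bars) in the windows of 8 genes, by library (rows) and distance from the start site in kb (x axis, upstream negative, dotted line at 0). The start-site peak of Neurog1 was 26.1 and 35.4 kb wide in H3WT and 10.0 and 8.35 kb wide in H3R2C, whereas the start-site peak of Neurod2 ended 14.5 to 15.4 kb past the start site in every library, and Neurod4, not drawn, had no peak.

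The calls at the start site were largely kept in the mutants. Neurog1, Neurog2, Neurog3, Neurod1 and Neurod2 had a start-site peak in all 9 libraries, which was so for 3.94% of all genes. Olig2 lacked one only in H3R2C library 2. None of the 6 genes met the definition of a loss, a peak in both H3WT libraries and in neither library of the mutant. Over all genes with a peak in both H3WT libraries, 26.1% were lost in H3R2C, 9.39% in H3R26C and 4.23% in H3R8C. Atoh1 met the opposite definition, a gain, in H3R8C, as did 0.832% of the genes without a peak in either H3WT library. Neurod6 did so in H3R26C, as did 0.931% of those genes. None of these 3 genes gained a peak in H3R2C (1.1% over all such genes). Of the 9 genes, those with a start-site peak numbered 6 in each H3WT library, 6 and 5 in H3R2C, 7 and 7 in H3R8C, 6 in H3R17C, and 7 and 8 in H3R26C. Over all genes the share was 10.1% and 10.8% in H3WT, 10.2% and 7.67% in H3R2C, 10.8% and 11.7% in H3R8C, 8.91% in H3R17C, and 12% and 9.21% in H3R26C.

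For the comparisons, the total signal of the peaks in a window was divided by the median, in the same library, over the 4032 genes with a peak in every library. A scaled signal of 1 therefore stands for the median marked gene. Differences are on the scale log2(scaled signal + 0.25), ± the standard error (SE), from limma fitted to 8182 genes with a peak in both libraries of at least 1 genotype. The adjusted p is by Benjamini-Hochberg over these genes with a threshold of 0.05, and H3WT, H3R2C, H3R8C and H3R26C (n = 2 libraries each) shared 1 estimate of the spread. Of the 9 genes 8 entered the fit. Neurod4 had no peak in any library, Neurod6 entered only through H3R26C and Atoh1 only through H3R8C. The 6 other genes entered through every genotype.

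In H3R2C against H3WT, the signal fell at Neurog1, Olig2 and Neurod1. No gene of the 8 rose, also at an unadjusted p under 0.05. Over all genes of the fit, 14.3% were called lower and 21.1% higher. Among the 6 genes with a peak in every library the same 3 were lower, and over the 4032 genes of that kind 17% were lower and 18.9% higher. The median difference of the 6 genes was -0.73, and that of the 4032 genes was 0.05. Over the 8 genes, of which Neurod6 and Atoh1 had no peak in either group and stand at 0, it was -0.29 (range -2.38 to 0), and over all genes of the fit 0.08.

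Neurog1 is a determinant of sensory neurons. Its scaled signal was 6.39 and 5.94 in the H3WT libraries and 0.744 and 1.27 in the H3R2C libraries. The groups were far apart, and the mean was 6.10-fold lower in H3R2C (log2 difference -2.38 ± 0.22, limma adjusted p = 0.000727). Coverage of the window was 24.0% and 28.1% in H3R2C, against 85.9% and 92.4% in H3WT. The peak that remained over the start site ran from -2.54 to 7.46 kb in library 1 and from -2.09 to 6.26 kb in library 2. In H3WT it had reached from -13.4 to 12.7 kb and from -14.4 to 21.01 kb. Thus the start site, with the CG-rich promoter printed above, stayed under a peak while most of both flanks fell below the level of the lists. Genes of chromosome 13, which carries Neurog1, had a median difference of -0.19. With the median of each chromosome set to 0 the call was kept. The size of the difference depended on the measure. It was -0.93 with a flank of 5 kb, beside -1.05 at Olig2 and -1.06 at Neurod1, and -0.85 with the maximum signal of the peaks, beside -0.89 at Olig2 and -0.80 at Neurod1, so the order of the 3 genes was not kept.

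Olig2 had a scaled signal of 4.95 and 5.72 in H3WT and of 1.71 and 1.77 in H3R2C. The values did not overlap, with a mean 3.06-fold lower in H3R2C (log2 difference -1.48 ± 0.18, limma adjusted p = 0.00165). In H3R2C library 1 a peak from -4.36 to 21.4 kb still spanned the start site. In library 2 the domain was called as 7 peaks of 1.2 to 4.4 kb, and none lay between -1.86 and 2.14 kb, where the promoter printed above is. Peak edges depend on the level of each list, so a gap was not shown to lack the mark. The median peak width over the whole list was 2.25 kb in H3R2C library 2, against 3.75 kb in library 1. H3R26C library 2, with a median width of 1.90 kb, also had 4 separate peaks in the window of Olig2. Coverage was 59.7% and 39.8%, against 71.0% and 89.9% in H3WT. Without scaling the difference at Olig2 was -1.62 with a larger SE of 0.57, and the call was lost (adjusted p = 0.0642).

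Neurod1 had a scaled signal of 1.55 and 1.18 in H3WT and of 0.319 and 0.770 in H3R2C. The groups did not overlap, and the mean was 2.51-fold lower (log2 difference -1.07 ± 0.29, limma adjusted p = 0.0270). The start-site peak narrowed from 16.8 and 13.2 kb in H3WT to 4.85 and 3.55 kb in H3R2C. Separate peaks lay upstream in H3R2C, from -7.80 to -5.25 kb in library 1. In library 2 they lay from -10.7 to -5.85 kb and from -3.90 to -2.30 kb. Coverage of the window was 16.7% and 22.7%, against 37.9% and 29.96% in H3WT. The call at Neurod1 was the least stable of the 3. It was lost without scaling, without the filter on genes, and when any library other than H3R2C library 2 was left out (adjusted p = 0.0604 to 0.143), while the difference kept its sign.

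The other genes with a start-site peak passed no threshold in H3R2C against H3WT. Neurod2, a factor of cortical neurons, had a scaled signal of 4.69 and 4.56 in H3WT and of 3.91 and 4.96 in H3R2C, so the groups overlapped (log2 difference -0.07 ± 0.20, limma adjusted p = 0.841). Its start-site peak ran from -4.85 to 15.4 kb and from -5.60 to 14.7 kb in H3WT, and from -4.70 to 14.6 kb and from -2.10 to 14.5 kb in H3R2C. Neurog3 had 2.53 and 2.66 in H3WT and 2.21 and 2.29 in H3R2C, lower in both libraries but by little (log2 difference -0.19 ± 0.14, limma adjusted p = 0.360). With chromosome medians set to 0 it was called lower (log2 difference -0.61, adjusted p = 0.0288), since genes of chromosome 10 had a median difference of 0.43. Neurog2 had 2.61 and 2.49 in H3WT and 1.66 and 2.13 in H3R2C. These values did not overlap, and the difference missed the threshold (log2 difference -0.40 ± 0.18, limma adjusted p = 0.137). Neurod6 and Atoh1 had no peak in either group.

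**Figure D3:**
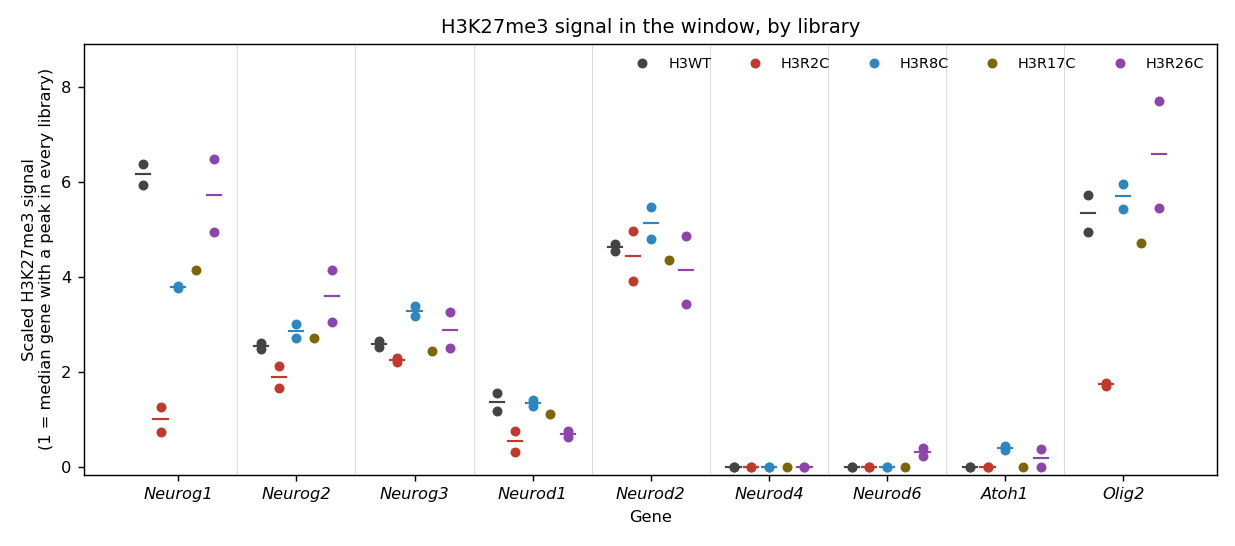
Scaled H3K27me3 signal (y axis, 1 for the median gene with a peak in every library) of the 9 genes (x axis), with a point for each library, a short line for the mean of 2 libraries, and colours for genotypes. Both H3R2C points lie below all others at Neurog1 and Olig2, and at Neurod2 they lie among the H3WT, H3R8C and H3R26C points.

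In H3R26C against H3WT, none of the 6 genes with a start-site peak in H3WT passed the threshold, where over all genes 12.9% were called lower and 11% higher (13.1% and 13.9% among genes with a peak in every library). By limma without adjustment, Neurod1 was lower and Neurog2 higher past the threshold. The median difference of the 6 genes was 0.01, and that of the 4032 genes with a peak in every library was 0.11. With Neurod6 and Atoh1 added it was 0.20, and over all genes of the fit 0. Neurog1 had a scaled signal of 4.95 and 6.48 in H3R26C, which spanned both H3WT values (log2 difference -0.11 ± 0.22, limma adjusted p = 0.774). Olig2 had 5.45 and 7.71 (log2 difference 0.27 ± 0.18, limma adjusted p = 0.322). Neurog2 had 3.06 and 4.15, above both H3WT libraries (log2 difference 0.44 ± 0.18, limma adjusted p = 0.124). Neurog3 had 2.51 and 3.25 and Neurod2 had 3.43 and 4.86, and each overlapped H3WT.

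Neurod1 was the gene with the lowest difference in H3R26C. Its scaled signal was 0.632 and 0.767, against 1.55 and 1.18 in H3WT, and its coverage was 19.1% and 11.98%, against 37.9% and 29.96%. The values did not overlap, and the adjusted p missed the threshold (log2 difference -0.76 ± 0.29, limma adjusted p = 0.102). With either H3R2C library left out, which leaves the difference as it was, it passed (adjusted p = 0.0487 and 0.04998).

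Neurod6 was called higher in H3R26C (log2 difference 1.18 ± 0.14, limma adjusted p = 0.00294), and it entered the fit only through that genotype, so the value is a description. Its scaled signal was 0.244 and 0.401 in the H3R26C libraries, with no peak in the other 7 libraries. The peaks were short and weak. In library 1 a peak of total signal 12750 lay over the start site, from -1.99 to 1.16 kb. In library 2 only the edge of a peak from -1.94 to -0.937 kb fell within 1 kb of the start and covered 3.10% of that interval. The 3 peaks of library 2 had total signals of 3400, 3650 and 5100, all below the lowest peak of either H3WT list (5800 and 6000). Divided by the scaling median of its library, the lowest peak of H3R26C library 2 was 0.112, above 0.0827 and 0.0806 in the H3WT libraries, so the order turned with the scale. With a common floor in scaled units for all lists the difference was 0.95. Neurod6 still had peaks in H3R26C only, so this value too is a description.

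In H3R8C against H3WT, none of the 8 genes passed the limma threshold, and 1 lower and 1 higher had an unadjusted p under 0.05. Over all genes 1.56% were called lower and 1.33% higher (1.46% and 0.521% among genes with a peak in every library). Neurog1 was the lower gene, with a scaled signal of 3.80 and 3.77 against 6.39 and 5.94 in H3WT (log2 difference -0.67 ± 0.22, limma adjusted p = 0.214). Its start-site peak was 18.6 and 18.7 kb wide and its coverage was 59.1% and 68.4%, between those of H3R2C and H3WT. Chromosome 13 had a median difference of -0.25 in this comparison. The higher gene was Atoh1, with 0.449 and 0.364 and no peak in H3WT (log2 difference 1.39 ± 0.38, limma adjusted p = 0.140). Both H3R8C libraries had a peak of 7.45 kb over its start site, with total signals of 29600 and 31950, above the lowest peak of every list. Atoh1 entered the fit only through H3R8C, where it is high, so its value is a description. With H3R26C library 1 or library 2 left out the difference stayed at 1.39 and only the SE became smaller. In H3R26C Atoh1 had a peak in library 2 only, with a scaled signal of 0.378. The remaining genes differed from H3WT by -0.01 to 0.31 on the log2 scale. Neurog3 had the widest coverage of any of its libraries in H3R8C library 2, 85.5%, against 61.1% in library 1.

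The H3R17C library was set beside H3WT without a test. Its scaled signal was 4.15 at Neurog1, below both H3WT libraries and above both H3R8C libraries, and 4.71 at Olig2. It was 1.12 at Neurod1, 2.72 at Neurog2, 2.45 at Neurog3 and 4.37 at Neurod2. On the log2 scale these lay -0.54 from the H3WT mean at Neurog1, -0.23 at Neurod1 and -0.17 at Olig2, and within 0.08 at the other 3 genes. Neurod4, Neurod6 and Atoh1 had no peak.

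H3R2C and H3R26C were also compared directly, since they share the H3WT controls in the comparisons above. Signal was lower in H3R2C at 4 of the 8 genes (3 of the 6 with a peak in every library) and higher at none, where 20.8% of all genes were called lower and 30.1% higher (23.5% and 23% among genes with a peak in every library). Neurog1 differed by -2.26 ± 0.22 (limma adjusted p = 0.000474) and Olig2 by -1.76 ± 0.18 (limma adjusted p = 0.000548). Neurog2 differed by -0.84 ± 0.18 (limma adjusted p = 0.00818), with 1.66 and 2.13 in H3R2C and 3.06 and 4.15 in H3R26C. Without H3R2C library 1 the adjusted p of Neurog2 rose to 0.0617. Neurod6, whose peaks chose it for the fit, differed by -1.18 ± 0.14 (limma adjusted p = 0.000774). Neurod1 did not differ past the threshold between these mutants (log2 difference -0.31 ± 0.29, limma adjusted p = 0.395), with 0.319 and 0.770 in H3R2C and 0.632 and 0.767 in H3R26C. Neurod2 differed by 0.10 ± 0.20 (limma adjusted p = 0.705).

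**Figure D4:**
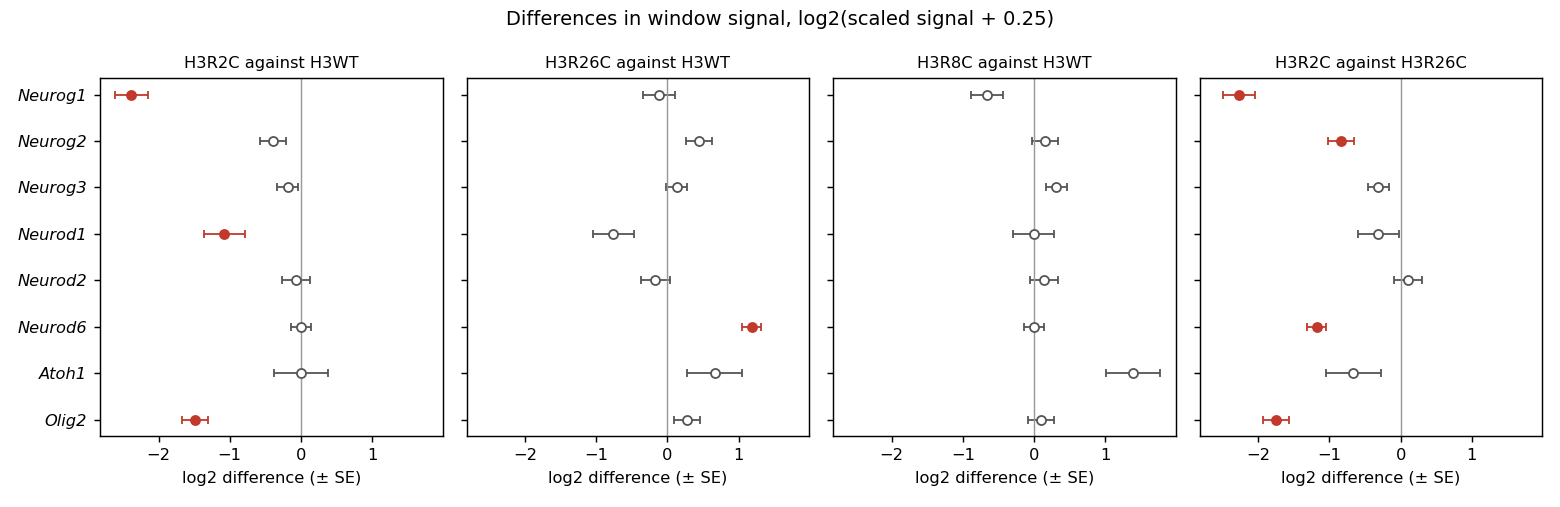
Differences in H3K27me3 signal (x axis, log2 of scaled signal + 0.25, points with ± SE, n = 2 libraries per genotype) of the 8 genes in the fit (y axis) for 4 comparisons, with filled red points for an adjusted p under 0.05. Neurog1 and Olig2 lie at -2.38 and -1.48 in H3R2C against H3WT and at -0.11 and 0.27 in H3R26C against H3WT.

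Among 12 other neural bHLH genes, 9 had a start-site peak in both H3WT libraries, as did 8.92% of all protein-coding genes. In H3R2C against H3WT, 6 of the 10 that entered the fit fell and none rose, with a median of -0.81. The shares over all genes of the fit were 14.3% lower and 21.1% higher. Olig1, which acts with Olig2 in oligodendrocytes and whose start lies 44.3 kb from that of Olig2, fell by 1.52 ± 0.19 (log2, as for all values that follow, limma adjusted p = 0.00169). Ptf1a, needed for the pancreas and for inhibitory neurons of the cerebellum, fell by 1.51 ± 0.21 (limma adjusted p = 0.00255). None of the 10 passed the limma threshold in H3R26C, where 12.9% of all genes were called lower and 11% higher. At an unadjusted p under 0.05, 1 of the 10 was lower there and 2 were higher. In H3R8C none passed the threshold or had an unadjusted p under 0.05 (1.56% called lower and 1.33% higher over all genes).

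Among 16 neural genes known to act downstream of or beside proneural factors, all entered the fit. In H3R2C 12 fell and 1 rose (14.3% and 21.1% over all genes of the fit), with a median of -1.49. Pax6, the eye and forebrain regulator, fell by 2.63 ± 0.24 and Nkx6-1, a factor of motor neurons and beta cells, by 2.70 ± 0.27 (limma adjusted p = 0.000592 and 0.000887). Ebf2 fell by 0.92 ± 0.08 in H3R2C, and by the same amount in H3R26C and H3R8C, because it had peaks in H3WT only and entered the fit through it (limma adjusted p = 0.000495, 0.00120 and 0.00485). The filter thus set its direction, and these values are a description, although Ebf2 is counted among the genes that fell. In H3R26C 1 gene, Ebf2, fell and 5 rose (12.9% and 11% over all genes of the fit). Those that rose were led by Isl1, a factor of motor and sensory neurons on chromosome 13 (log2 difference 2.26 ± 0.28, limma adjusted p = 0.00343), and St18 (1.55 ± 0.34, limma adjusted p = 0.0214). Genes of chromosome 13 had a median difference of 0.42 there.

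Of 12 genes for partners and inhibitors, 2 had a start-site peak in both H3WT libraries, Hes5 and Heyl, and 5 entered the fit. Such a peak was present at 8.92% of all protein-coding genes. In H3R2C the Notch effector Hes5 fell by 0.78 ± 0.21 (limma adjusted p = 0.0292). The E protein gene Tcf3 had peaks in H3R2C only and entered the fit through it, so the filter set its direction. Its value there, higher by 0.55 ± 0.08 (limma adjusted p = 0.00262), is therefore a description. In H3R26C Id4, an inhibitor of bHLH factors, rose by 1.53 ± 0.32 (limma adjusted p = 0.0190). Of 11 Notch pathway genes, the ligands Dll1 and Dll4 had a start-site peak in both H3WT libraries, and 6 genes entered the fit. In H3R2C Dll3 fell by 1.35 ± 0.34 and Notch4 rose by 0.84 ± 0.20 (limma adjusted p = 0.0220 and 0.0183), and in H3R26C Dll4 fell by 0.82 ± 0.23 (limma adjusted p = 0.0459). No gene of either list passed the limma threshold in H3R8C, and 1, of the Notch list, was higher at an unadjusted p under 0.05. Over all genes of the fit, 14.3% were called lower and 21.1% higher in H3R2C. The shares were 12.9% and 11% in H3R26C, and 1.56% and 1.33% in H3R8C.

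The genes whose log2 scaled signal varied most like that of a proneural gene over the 9 libraries are given as a description. They share libraries and were the highest of 8182 genes searched. For Neurog1 these were Nkx2-2 (Pearson r = 0.983) and Ephb1 (r = 0.982), for Olig2 Foxl2 (r = 0.997) and Pou4f1 (r = 0.995), and for Neurog2 Hoxb3 (r = 0.987) and Lhx5 (r = 0.985). For Neurod1 they were Zfp11 (r = 0.984) and Map7d3 (r = 0.974). For Neurod6, which had peaks in 2 libraries only, they were Olfr1434 and Mreg (r = 1.000 each).

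**Figure D5:**
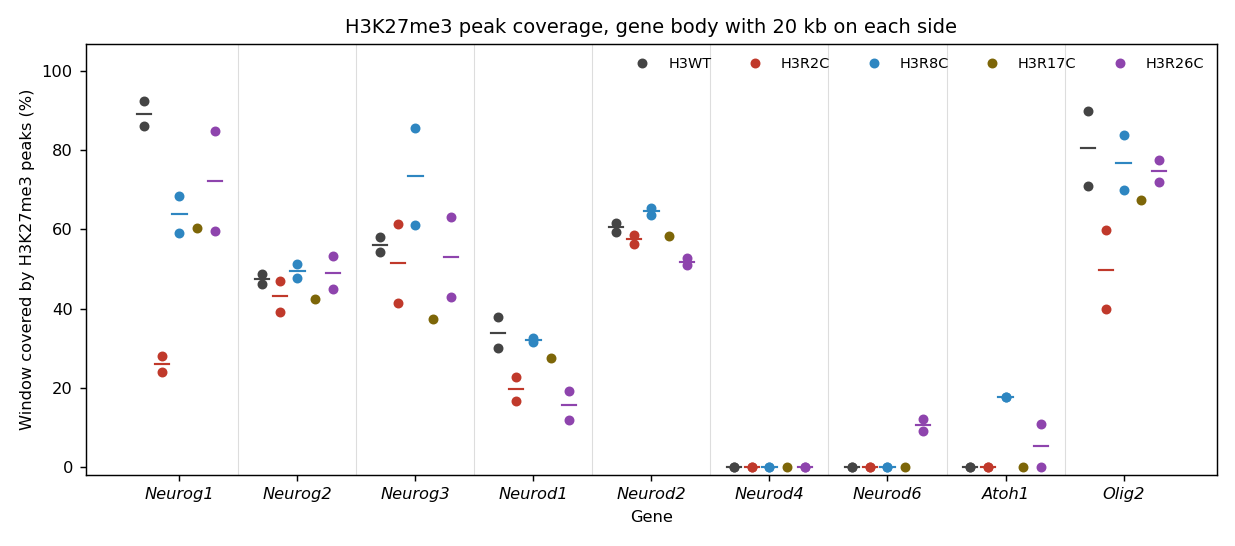
Percent of the window covered by H3K27me3 peaks (y axis) of the 9 genes (x axis), with a point for each library, a short line for the mean of 2 libraries, and colours for genotypes. At Neurog1 the H3R2C points lie at 24.0% and 28.1%, and the points of the other genotypes lie between 59.1% and 92.4%.

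The tagged histone was seldom called at these genes. Its 10 anti-HA lists, numbered as above, held between 15344 and 52083 peaks, and the H3WT lists stood apart, with a median peak width of 10.7 and 2.65 kb against 0.80 to 1.60 kb in the mutants, so no test was made between genotypes. A start-site HA peak was present at Neurod2 in H3WT library 1, H3R2C library 2 and H3R26C library 1, and at Neurog3 in H3R2C library 2. It was present at no other of the 9 genes, whereas 7.99% to 21.3% of all genes had one, depending on the list. Neurod2 had HA peaks somewhere in its window in all 10 lists, over 50.4% and 49.8% of it in H3WT and 8.70% to 35.3% in the mutants. Neurog3 had them in 8 lists, over 2.40% to 15.7%. Neurog1 had an HA peak in H3WT library 1 only, over 31.9% of the window and from 1.21 to 14.5 kb. Olig2 had one in H3WT library 2 only (6.94%) and Neurod1 in H3R17C library 1 only (2.03%). Neurog2, Neurod4, Neurod6 and Atoh1 had none. The H3WT HA lists covered 213 and 135 Mb of the genome, against 42.9 to 93.4 Mb in the mutants. The study also lists its largest anti-HA read total for an H3WT sample. HA coverage at these genes was therefore not compared between genotypes. Whether the tagged histone was present below the level of the lists was not tested.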

How the data were processed

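CUT&RUN peak lists were analysed from 29 of the 60 labelled samples, those with anti-H3K27me3 and anti-HA. Samples with IgG and anti-H3K4me3 were not analysed here, and 1 H3R17C list was not used because its name gave another mark. As the methods describe, alignment of single-end reads to mm10 by the authors used Rsubread, and SEACR 1.3 (stringent, normalised, threshold 0.01) gave the peaks. SEACR in this mode keeps a top share of blocks in each library. The deposited signal of a peak is coverage summed over its bases, in whole numbers not scaled to depth, with edges on a 50 bp grid. The lists hold no read counts per peak, so no interval for counting error is printed, and precision rests on the spread between libraries. The study gives total reads for each labelled sample, which were not used in the fit. The study names biological replicates, but identical lists were counted once, which left 19 libraries.

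Groups came from the sample titles. Genes and start sites were those of GENCODE M21 (GRCm38). A peak counted for a start site with an overlap of at least 1 bp. Peak signal was shared out by its overlap with the window, scaled, and fitted as log2(scaled signal + 0.25) with limma 3.58.1 (lmFit, eBayes with trend, R 4.3.3) after tests on simulated data. The peak lists hold no reads, so no count model was fitted. The genes, the other gene lists and the tests were chosen with earlier results of these data known. From the other lists, at most 3 genes per list and comparison with the lowest adjusted p under 0.05 were named, and for each proneural gene past the threshold the 2 genes most correlated with it, over 1 Mb away or on another chromosome. A gene that this rule names is not reported here. Alternatives covered pseudocounts (0.05 and 1), scaling, filters, maximum signal, flanks of 5 and 50 kb, peak thresholds, the replicate block and leaving out each library. A common floor for all lists, in scaled units, was added after seeing the data.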

Additional observations from a re-analysis of the deposited data

Results flagged for a closer look

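The responses of 3 genes with a peak in every library to H3R2C and to H3R26C differed from each other in the direct limma comparison of these mutants. H3R2C minus H3R26C was -2.26 at Neurog1, -1.76 at Olig2 and -0.84 at Neurog2 on the log2 scale. Neurod6, at -1.18, entered the fit only through H3R26C, where it is high, so its value, which rests on peaks present in H3R26C only, is a description. For Neurog1 and Olig2 both H3R2C libraries lay below both H3R26C libraries, with 0.744 and 1.27 against 4.95 and 6.48 at Neurog1 and 1.71 and 1.77 against 5.45 and 7.71 at Olig2. Chromosome 13, with Neurog1, had a median difference of -0.65 in the same comparison. The call at Neurog1 was kept with the median of each chromosome set to 0.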

How the results depend on the processing

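Over 26 alternatives, Neurog1 stayed below H3WT and below H3R26C in H3R2C past the threshold in all of them, and Olig2 in 25, with unscaled signal as the exception (adjusted p = 0.0642 and 0.0818). The size at Neurog1 ranged from -2.74 to -0.85 against H3WT and from -2.68 to -0.83 against H3R26C, and at Olig2 from -1.64 to -0.89 and from -1.998 to -1.06, with maximum signal giving the smallest of each. Neurod1 in H3R2C against H3WT passed in 17 of 26 and Neurog2 in H3R2C against H3R26C in 21 of 26. Neurod6 entered the fit through H3R26C only, and without the filter it missed the threshold against H3WT (adjusted p = 0.0919). Neurog2 missed the threshold with maximum signal, without scaling or filter, with a flank of 5 kb and without H3R2C library 1. Without scaling, 1 gene in place of 3 was called lower in H3R2C against H3WT, 2 in place of 4 against H3R26C, and 1 in place of 0 was higher in H3R8C. The gene called higher was Atoh1, which entered the fit only through H3R8C. In H3R26C against H3WT, the count called higher was 0 without a filter, against 1, which was Neurod6. It was also 0 with a peak in every library and with the upper 50% of peaks, but Neurod6 did not enter those fits. With all 3 labelled lists, which counts identical lists as replicates, 1 was lower and 2 higher in H3R26C, and 1 was lower and 2 higher in H3R8C. Leaving out each library in turn gave 2 to 3 lower in H3R2C against H3WT, 3 to 6 lower against H3R26C (3 without H3R2C library 1 and 6 without H3R26C library 1), 0 to 1 lower and 1 to 2 higher in H3R26C against H3WT (Atoh1 added without H3R26C library 1), and 0 to 1 higher in H3R8C. The median coverage of the 9 windows, 47.4% in H3WT, 26.03% in H3R2C, 49.5% in H3R8C and 47.9% in H3R26C, was 93.2%, 68.3%, 95.4% and 83.0% with a flank of 5 kb and 19.7%, 17.9%, 20.5% and 20.3% with one of 50 kb. With the upper 50% of peaks it was 43.9%, 22.0% and 45.7% in the first 3 groups. The start-site peak of Neurod6 in H3R26C library 2 was lost when 50% of the interval had to be covered, which left 7 of 9 genes.

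The sign changed only for differences that passed no threshold in the main fit. Some of these passed under another setting, such as Neurog3 in H3R2C against H3R26C with chromosome medians set to 0 (limma adjusted p = 0.00908). For H3R2C against H3WT, Neurod2 was 0.14 with maximum signal and 0.068 with a flank of 5 kb, and ranged from -0.23 to 0.095 as each library was left out. For H3R26C against H3WT, Neurog1 was 0.34 with a flank of 5 kb. Neurog3 was -0.23 with maximum signal and -0.34 without scaling, and Neurog2 and Olig2 were -0.035 and -0.23 without scaling. With each library left out, Neurog1 ranged from -0.30 to 0.072, Neurog3 from -0.042 to 0.30 and Neurod2 from -0.40 to 0.068. For H3R8C against H3WT, Neurog3 was -0.12 with maximum signal, and Neurod1 was 0.059 without scaling and 0.024 with a flank of 5 kb. With each library left out, Neurod1 ranged from -0.17 to 0.16 (0.045 without H3R8C library 2) and Olig2 from -0.0071 to 0.19. For H3R2C against H3R26C, Neurog3 was 0.017 without scaling and Neurod2 was -0.24 with chromosome medians set to 0. With each library left out, Neurod1 ranged from -0.74 to 0.11 and Neurod2 from -0.13 to 0.34 (-0.060 without H3R2C library 2). The causes were not tested.

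Deviations of same-numbered libraries correlated at -0.03 to 0.27 between genotypes, so the numbers were not taken to pair them. With the replicate number as a block, the calls were 3 lower in H3R2C against H3WT, 1 higher in H3R26C, none in H3R8C and 4 lower in H3R2C against H3R26C, as without it. A genotype left with 1 library was assumed to vary like the others. With 2 libraries per genotype, 1 library can set a call, and a gene below the level of a list takes the value 0.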
